A study of Mus musculus with 12 samples.

Results

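The genes described here are 9 epigenetic regulators grouped as mutated in myeloid neoplasia, though Dnmt3b is far better known from embryonic development: the de novo DNA methyltransferase genes Dnmt3a and Dnmt3b, the methylcytosine dioxygenase gene Tet2, the isocitrate dehydrogenase genes Idh1 and Idh2, the Polycomb-linked genes Ezh2, Asxl1 and Bcor, and the histone methyltransferase gene Kmt2a. They were chosen by gene symbol, and all 9 were present among the 24411 genes listed in each of 12 mouse RNA-seq libraries. All 9 passed the filter on low counts, which kept 13755 genes. RNA came from lineage-negative, cKit-positive marrow cells of femora and tibiae, a gate for blood stem cells and progenitors. Each of 4 donor genotypes, all carrying CD45.2 and Mx1-Cre on C57BL/6, had 3 libraries: inv(3) with Sf3b1 K700E/WT (the double group), inv(3) alone, Sf3b1 K700E/WT alone, and Mx1-Cre with neither allele (control). Mx1-Cre is switched on in blood and other tissues by interferon, which pIpC induces. Every recipient, a lethally irradiated CD45.1 mouse, also received wild-type CD45.1 support marrow. Each was given 3 doses of pIpC at 20 mg/kg, 4 weeks after the transplant, and was sampled 6 months after the doses. No source used here says whether CD45.2 cells were separated from support cells, so wild-type RNA may be present in every group.

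DNA methyltransferases of the DNMT3 family place methyl groups on cytosines of CG dinucleotides, and TET enzymes oxidise them. TET enzymes and many histone demethylases need 2-oxoglutarate, which Idh1 makes in the cytosol and Idh2 in mitochondria, and the mutant isocitrate dehydrogenases of leukemia instead make 2-hydroxyglutarate, an inhibitor of those oxygenases. Ezh2 is the catalytic subunit of Polycomb repressive complex 2, Asxl1 is a cofactor of a histone H2A deubiquitinase, Bcor is a scaffold of a variant Polycomb repressive complex 1, and Kmt2a (MLL1) methylates histone H3 lysine 4 and sustains Hox gene expression in stem cells. Inversion 3 places a GATA2 enhancer beside the EVI1 gene (Mecom in mouse), and SF3B1 is a core splicing factor, so the design asks what each allele and their combination do to progenitor RNA.

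Dnmt3b, Idh1 and Dnmt3a had the widest ranges of group means, and their promoters are shown for that reason. The sequences cover 250 bases before to 50 bases after a RefSeq start on GRCm38.p6, read 5′ to 3′ along the gene's strand, with CG dinucleotides, the substrate of Dnmt3a and Dnmt3b, in capitals. For Dnmt3a they are the outer start at chr12:3806730-3807029 (plus strand) and an internal start at chr12:3891494-3891793 (plus strand). The Dnmt3b window is chr2:153649199-153649498 (plus strand), and the Idh1 window shown is chr1:65186430-65186729 (minus strand). A Dnmt3a window at chr12:3806910-3807209, which overlaps the outer one, and an Idh1 window at chr1:65179093-65179392 are not shown.
Dnmt3a, outer start: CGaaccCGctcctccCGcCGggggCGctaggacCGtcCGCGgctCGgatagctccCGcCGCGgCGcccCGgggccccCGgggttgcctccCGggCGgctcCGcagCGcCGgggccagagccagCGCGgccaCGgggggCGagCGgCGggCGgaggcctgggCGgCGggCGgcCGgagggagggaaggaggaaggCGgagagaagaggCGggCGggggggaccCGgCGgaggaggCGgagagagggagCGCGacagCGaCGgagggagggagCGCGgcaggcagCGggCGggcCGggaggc
Dnmt3a, internal start: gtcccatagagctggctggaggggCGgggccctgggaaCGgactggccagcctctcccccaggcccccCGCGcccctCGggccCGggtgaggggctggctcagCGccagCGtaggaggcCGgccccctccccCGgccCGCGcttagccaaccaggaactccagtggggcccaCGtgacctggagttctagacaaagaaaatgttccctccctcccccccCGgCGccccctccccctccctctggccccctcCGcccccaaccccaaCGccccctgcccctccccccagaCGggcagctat
Dnmt3b: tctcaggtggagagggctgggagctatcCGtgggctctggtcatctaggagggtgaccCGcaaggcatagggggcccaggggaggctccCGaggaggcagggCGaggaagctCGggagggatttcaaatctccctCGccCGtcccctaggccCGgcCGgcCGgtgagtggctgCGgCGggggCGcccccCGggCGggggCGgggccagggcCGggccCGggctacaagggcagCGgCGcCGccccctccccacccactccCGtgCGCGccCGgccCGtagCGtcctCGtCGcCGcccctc
Idh1: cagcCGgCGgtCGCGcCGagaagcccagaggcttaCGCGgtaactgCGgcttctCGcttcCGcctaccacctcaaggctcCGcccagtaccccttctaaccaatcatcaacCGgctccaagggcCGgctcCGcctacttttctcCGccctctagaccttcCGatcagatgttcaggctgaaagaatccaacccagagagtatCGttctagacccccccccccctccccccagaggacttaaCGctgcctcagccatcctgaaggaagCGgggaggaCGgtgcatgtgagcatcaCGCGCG

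The outer Dnmt3a window held 46 CG dinucleotides, more than 98.4% of 32851 mouse promoter windows of the same length, whereas the internal Dnmt3a window held 18. The Dnmt3b window held 30 and the Idh1 window shown held 23, against a median of 7 over all windows. The Dnmt3a and Idh1 windows not shown held 47 and 23. Tet2 had the richest window of the 9 genes, with 57 CG dinucleotides, more than 99.8% of promoters, and Asxl1 the poorest, with 13. The hexamer GATAAG, searched on both strands, was in none of the members' windows and in 7.4% of all. The E2F-type motif TTTNNCGC, also searched on both strands, was in the windows of Ezh2 and Asxl1 and in 5.2% of all promoters.

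Libraries held 73074797 to 86555638 expected counts. Kit, the receptor of the sort gate, lay between 420.4 and 468.1 CPM (counts scaled to library size with TMM factors) in every library and passed the test in no comparison (adjusted p at least 0.055). Other markers were not level. Summed CPM of 12 macrophage markers was 68.1 to 88.9 in the double group, 83.7 to 128.4 with inv(3) alone, 458.6 to 629.1 with Sf3b1 K700E alone and 346.1 to 432.7 in the control group. Vcam1 made up most of the control sum, averaging 312.6 CPM there and 63.8 CPM in inv(3). Of 11 tested against control, 7 were called lower in double and 7 in inv(3), where 1, Adgre1, was called higher. In Sf3b1 K700E 9 of the 11 were called higher and none lower. The sum of 7 megakaryocyte markers was also lower with inv(3), at 24.5 to 45.9 CPM in double and 22.0 to 36.6 CPM in inv(3), against 127.5 to 189.8 CPM in Sf3b1 K700E and 108.7 to 141.4 CPM in control libraries. Of these 7, 5 were called lower and none higher in double and in inv(3) against control. The 7 mast cell and basophil markers summed to 188.6 to 224.8 CPM in double, 200.7 to 233.6 CPM in inv(3), 603.8 to 674.3 CPM in Sf3b1 K700E and 581.6 to 615.7 CPM in control libraries. The sum of 7 mature neutrophil markers ran the other way, at 1373 to 2049 CPM in double and 2333 to 2711 CPM in inv(3), against 662 to 1162 CPM in Sf3b1 K700E and 845 to 1233 CPM in control libraries. That sum was mostly S100a8, which averaged 2323 CPM in inv(3) and 984.8 CPM in control libraries. Against control, 3 of the 7 were called higher and 1, Mmp8, lower in inv(3). In double 4 were called higher and none lower. The 8 late erythroid markers summed to 57.9 to 86.9 CPM in double, 30.2 to 60.7 CPM in inv(3), 103.7 to 204.9 CPM in Sf3b1 K700E and 21.3 to 26.7 CPM in control libraries. The sum of the progenitor markers was mostly Mpo, a granule enzyme gene, which averaged 22040 ± 1574 CPM in double, 27910 ± 209.7 CPM in inv(3), 15920 ± 1699 CPM in Sf3b1 K700E and 23100 ± 978 CPM in control libraries (SD, n = 3 each). Cd34, a stem and progenitor surface marker in the same list, had another order, at 221.6 ± 45.3, 130.4 ± 36.8, 379.7 ± 14.9 and 295.4 ± 18.3 CPM in the same groups. Of 7 T and NK cell markers, Cd3e, Cd3d and Cd3g had group means under 0.05 CPM in the double, inv(3) and control groups. In Sf3b1 K700E they had 0.054, 0.068 and 0.044 CPM. The 7 summed to 0.94 to 1.29, 0.75 to 1.6, 1.81 to 3.82 and 1.05 to 1.39 CPM in double, inv(3), Sf3b1 K700E and control. Of 3 tested against control, 1 was called higher in Sf3b1 K700E and none lower. The 8 B lymphoid markers summed to 32.0 to 33.2, 26.1 to 32.9, 25.4 to 26.35 and 23.3 to 25.0 CPM in that order. Most was Cd79b. Of 6 tested, 4 were called higher in Sf3b1 K700E against control and none lower. The part of these shifts in the members' values was not tested. In bulk RNA, fewer cells of a type and less RNA per cell cannot be told apart. Summed counts of 4 Y-linked genes were 22380 to 23788 in double libraries, only 4 to 8 in inv(3) libraries, 19200 to 25380 with Sf3b1 K700E and 20343 to 20418 in control libraries. Xist had 23.2 to 40.5 CPM in double libraries, 1794 to 2095 CPM in inv(3) libraries, 77.1 to 209.7 CPM with Sf3b1 K700E and 24.0 to 39.9 CPM in control libraries. Donor or recipient sex and the inv(3) genotype therefore cannot be told apart in comparisons that use the inv(3) group.

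On the TPM scale, which divides by transcript length and so allows levels to be set between genes, the members spanned a wide range. Over the 12 libraries Idh2 averaged 267.6 TPM, Idh1 139.5 TPM and Ezh2 106.8 TPM, and Tet2 was lowest at 15.9 TPM, near the median of tested genes (17.1 TPM). Asxl1 (43.0 TPM), Bcor (37.0 TPM) and Kmt2a (26.8 TPM) lay between them. Dnmt3b and Dnmt3a, at 23.1 and 22.5 TPM, were adjacent, and their order depended on the genotype. Dnmt3b exceeded Dnmt3a in Sf3b1 K700E libraries (28.2 ± 1.9 against 20.6 ± 0.6 TPM) and in control libraries (21.9 ± 1.1 against 19.9 ± 0.6 TPM), but lay below it in inv(3) libraries (16.4 ± 1.2 against 22.4 ± 1.2 TPM; SD, n = 3 each). In double libraries the pair, at 25.7 ± 2.2 TPM for Dnmt3b and 27.2 ± 0.8 TPM for Dnmt3a, lay within their spread. These TPM values describe levels within a library and were not tested.

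**Figure D1:**
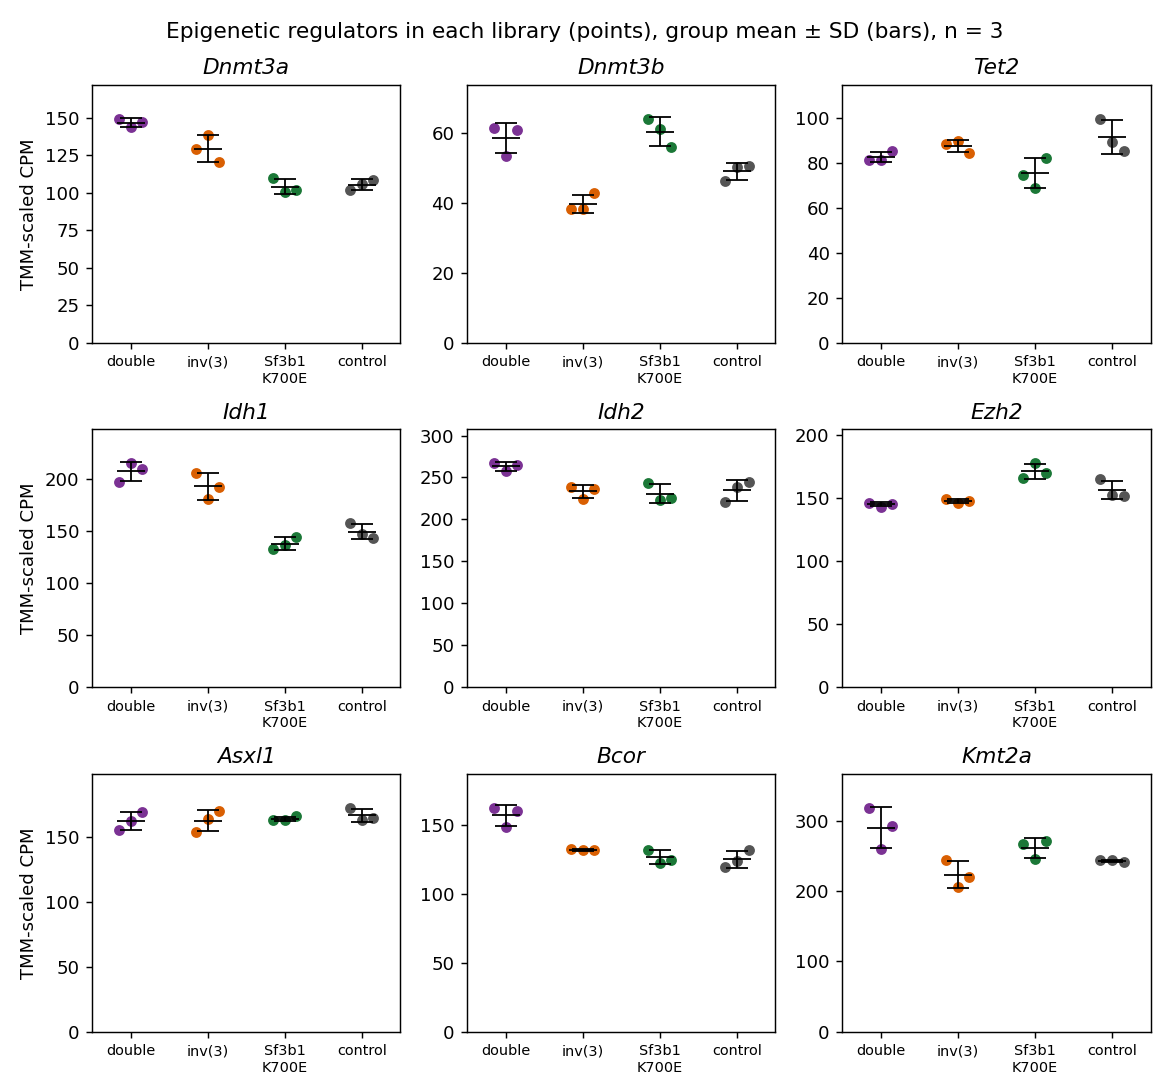
Level of each of the 9 genes in CPM (linear axis from 0, TMM-scaled) in every library of the double, inv(3), Sf3b1 K700E and control groups. Points are libraries and bars are the group mean ± SD (n = 3); Dnmt3a and Idh1 are highest in the double and inv(3) groups, Dnmt3b is lowest in inv(3), and the 4 groups of Asxl1 overlap.

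Comparisons between genotypes below use TMM-scaled CPM and log2 fold changes from edgeR's quasi-likelihood test, with p-values adjusted by Benjamini-Hochberg over the 13755 genes tested and a limit of 0.05. Errors of log2 fold changes are standard errors. The labels do not say whether replicates are separate mice, and the p-values therefore reflect only how these samples varied.

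Dnmt3a, whose enzyme is the main de novo methyltransferase of adult blood stem cells, was highest when both alleles were present. It had 149, 144 and 147 CPM in the double libraries, 129, 138 and 121 CPM in inv(3), 109.5, 100.4 and 102 CPM in Sf3b1 K700E and 101.5, 106 and 109 CPM in control. Every double and inv(3) library was above every Sf3b1 K700E and control library, and the Sf3b1 K700E and control libraries overlapped. Dnmt3a rose in double against control by 0.48 ± 0.05 log2 units, a ratio of 1.39 (adjusted p = 3.2e-05), and in inv(3) against control by 0.30 ± 0.05 (adjusted p = 0.0011). In double against Sf3b1 K700E it rose by 0.50 ± 0.05 (adjusted p = 1.9e-05). Sf3b1 K700E against control gave -0.02 (adjusted p = 0.87). The double libraries also exceeded the inv(3) libraries, by 0.18 ± 0.05 (adjusted p = 0.032). That call was lost with the 2 groups fitted alone (adjusted p = 0.080) and on leaving out any of 8 libraries: inv(3) replicate 3 (0.13, adjusted p = 0.12), inv(3) replicate 1 (adjusted p = 0.067), double replicate 1 (adjusted p = 0.11), double replicate 3 (adjusted p = 0.095), control replicates 2 and 3 (adjusted p = 0.053 and 0.054) and Sf3b1 K700E replicates 2 and 3 (adjusted p = 0.054 and 0.055).

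Dnmt3b, whose enzyme acts in embryonic cells and, at lower levels, in blood stem cells, moved in opposite directions with the single alleles. Its levels were 61.5, 53.6 and 60.9 CPM in double, 38.5, 38.4 and 42.9 CPM in inv(3), 64.3, 61.4 and 56.0 CPM in Sf3b1 K700E and 46.3, 50.5 and 50.7 CPM in control libraries. The inv(3) libraries lay below all others, the control libraries came next, and the double and Sf3b1 K700E libraries lay above both and overlapped each other. Relative to control, Dnmt3b fell by 0.30 log2 units in inv(3) (SE 0.07, adjusted p = 0.0058) and rose by 0.30 ± 0.07 in Sf3b1 K700E (adjusted p = 0.026). In double libraries it rose by 0.25 ± 0.07 against control (adjusted p = 0.014) and by 0.56 ± 0.07 against inv(3), a ratio of 1.47 (adjusted p = 0.00080), which was the largest change of any member in that comparison. Against Sf3b1 K700E the double libraries differed by -0.05 ± 0.07 (adjusted p = 0.62).
The calls of the 2 smaller rises, though not their direction, depended on single libraries. The rise in Sf3b1 K700E no longer passed without control replicate 1 (0.26, adjusted p = 0.084), control replicate 2 (0.32, adjusted p = 0.082), Sf3b1 K700E replicate 1 (0.25, adjusted p = 0.066) or Sf3b1 K700E replicate 2 (0.31, adjusted p = 0.091). The rise in double against control no longer passed without control replicate 1 (0.21), double replicate 1 (0.22) or double replicate 3 (0.22), each at an adjusted p of 0.058. The fall in inv(3) and the difference between double and inv(3) passed without any one library, with adjusted p up to 0.028 and 0.0064.

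Tet2, the oxidase gene whose loss is a common early event in human clonal blood disease, was the only member called lower in Sf3b1 K700E against control. Double libraries had 81.2, 81.1 and 85.0 CPM, inv(3) libraries 88.4, 89.6 and 84.4 CPM, Sf3b1 K700E libraries 74.5, 68.9 and 82.2 CPM and control libraries 99.5, 89.2 and 85.3 CPM. All Sf3b1 K700E and all double libraries lay below the lowest control library, the highest double library at 85.0 against the lowest control library at 85.3 CPM, and inv(3) overlapped control. Tet2 fell in Sf3b1 K700E against control by 0.28 on the log2 scale (SE 0.07, ratio 0.82, adjusted p = 0.028). This call was lost without control replicate 1 (-0.21, adjusted p = 0.086), control replicate 2 (-0.30, adjusted p = 0.083), Sf3b1 K700E replicate 1 (-0.28, adjusted p = 0.058) or Sf3b1 K700E replicate 2 (-0.20, adjusted p = 0.17), and with the 2 groups fitted alone (adjusted p = 0.063). In double against control the value was -0.15 ± 0.07 (adjusted p = 0.10; with library totals alone -0.18, adjusted p = 0.037), and in inv(3) against control it was -0.06 (adjusted p = 0.50). Double against Sf3b1 K700E gave 0.13 (adjusted p = 0.12), which passed without Sf3b1 K700E replicate 3 (0.18, adjusted p = 0.042).

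Idh1 showed the largest rise of the 9 genes in inv(3) against control. It had 198, 215.5 and 209.6 CPM in double, 206, 181 and 192.5 CPM in inv(3), 133, 137 and 145 CPM in Sf3b1 K700E and 158, 147 and 144 CPM in control libraries. All libraries with inv(3) were above all libraries without it, double and inv(3) overlapped, and Sf3b1 K700E and control overlapped. Idh1 rose by 0.47 ± 0.06 in double against control (ratio 1.39, adjusted p = 6.7e-05), by 0.37 ± 0.06 in inv(3) against control (ratio 1.29, adjusted p = 0.00047) and by 0.59 ± 0.06 in double against Sf3b1 K700E (adjusted p = 1.1e-05). These 3 calls passed without any one library. The remaining pairs, double against inv(3) at 0.10 ± 0.06 (adjusted p = 0.23) and Sf3b1 K700E against control at -0.12 (adjusted p = 0.24), did not pass.

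Idh2, the mitochondrial enzyme's gene and the most abundant member, passed the test in the 3 comparisons of the double group and by small amounts. The double libraries had 267, 257 and 265 CPM, the inv(3) libraries 239, 225 and 237 CPM, the Sf3b1 K700E libraries 244, 223 and 226 CPM and the control libraries 220.4, 239 and 245 CPM. All double libraries exceeded all 9 others, which overlapped. Idh2 rose in double by 0.16 ± 0.05 against control (adjusted p = 0.020), by 0.17 ± 0.05 against inv(3) (adjusted p = 0.029) and by 0.19 ± 0.05 against Sf3b1 K700E (adjusted p = 0.0084). The changes with the single alleles were -0.01 for inv(3) (adjusted p = 0.91) and -0.02 for Sf3b1 K700E (adjusted p = 0.80). Each of the 3 calls was lost without certain libraries. Against control these were control replicate 1 (0.12, adjusted p = 0.092), double replicate 1 (adjusted p = 0.069) or double replicate 3 (adjusted p = 0.068). Against inv(3) they were inv(3) replicate 2 (0.14, adjusted p = 0.11), inv(3) replicate 3 (adjusted p = 0.059), double replicate 1 (adjusted p = 0.098) or double replicate 3 (adjusted p = 0.097), and against Sf3b1 K700E the call was lost without Sf3b1 K700E replicate 2 (adjusted p = 0.054). Scaling by library totals alone ended the calls against control (0.13, adjusted p = 0.063) and against Sf3b1 K700E (0.10, adjusted p = 0.13).

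Among the Polycomb-linked genes, Ezh2 was highest in Sf3b1 K700E libraries. It had 146, 143 and 145 CPM in double, 149, 146 and 148 CPM in inv(3), 166, 177.5 and 169.7 CPM in Sf3b1 K700E and 165, 152 and 152 CPM in control libraries. The Sf3b1 K700E libraries lay above all others; the lowest of them, at 166 CPM, was close to the highest control library at 165 CPM, and the libraries with inv(3) lay below all control libraries. Ezh2 fell in double against Sf3b1 K700E by 0.24 on the log2 scale (SE 0.04, ratio 0.85, adjusted p = 0.00067), and this passed without any one library. Against control the values were -0.11 ± 0.04 in double (adjusted p = 0.059), -0.08 in inv(3) (adjusted p = 0.14) and 0.13 ± 0.04 in Sf3b1 K700E (adjusted p = 0.080), and none passed. DESeq2 called both the double value (-0.11, adjusted p = 0.024) and the Sf3b1 K700E value (0.14, adjusted p = 0.011), and library totals alone called these and the inv(3) value (-0.16, adjusted p = 0.014). With edgeR the double value passed without Sf3b1 K700E replicate 1 (adjusted p = 0.045) and the Sf3b1 K700E value without control replicate 1 (0.17, adjusted p = 0.046).

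Asxl1 was the steadiest member, with group means within 0.04 log2 units of each other against a median range of 0.37 over all tested genes. Its values were 155, 162 and 169 CPM in double, 153.5, 164 and 169.9 CPM in inv(3), 163, 163 and 166 CPM in Sf3b1 K700E and 172.5, 163 and 164 CPM in control libraries. The groups overlapped in every comparison, and no comparison passed, with adjusted p from 0.54 to 0.96.

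Bcor, an X-linked gene, was highest in double libraries. It had 163, 149 and 161 CPM in double, 133, 132 and 132 CPM in inv(3), 132.5, 123 and 125 CPM in Sf3b1 K700E and 120.1, 124 and 132 CPM in control libraries. Every double library was above every other library. Bcor rose by 0.33 ± 0.05 against control (ratio 1.26, adjusted p = 0.00029), by 0.25 ± 0.05 against inv(3) (adjusted p = 0.0054) and by 0.31 ± 0.05 against Sf3b1 K700E (adjusted p = 0.00032), and all 3 calls passed without any one library. Double, Sf3b1 K700E and control libraries all had Y-linked RNA, whereas inv(3) libraries had 4 to 8 Y-linked counts and far more Xist. Sex was not separable from genotype in double against inv(3). Xist was also higher in Sf3b1 K700E libraries (77.1 to 209.7 CPM) than in double (23.2 to 40.5 CPM) and control libraries (24.0 to 39.9 CPM), and the source of that difference was not tested. Inv(3) alone gave 0.08 (adjusted p = 0.25) and Sf3b1 K700E alone 0.02 (adjusted p = 0.87).

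Kmt2a was also highest in double libraries, with a wide spread between replicates. It had 319, 261 and 292 CPM in double, 244, 206.5 and 220.5 CPM in inv(3), 267, 246 and 271 CPM in Sf3b1 K700E and 244, 244 and 241 CPM in control libraries. The double libraries lay above all inv(3) and all control libraries but overlapped Sf3b1 K700E. Kmt2a rose by 0.38 ± 0.08 against inv(3) (ratio 1.30, adjusted p = 0.0055), which passed without any one library, and by 0.26 ± 0.08 against control (adjusted p = 0.017), which was lost without double replicate 1 (0.18, adjusted p = 0.084) or double replicate 3 (0.25, adjusted p = 0.053). Against Sf3b1 K700E the value was 0.15 ± 0.08 (adjusted p = 0.11; without double replicate 2 it was 0.22, adjusted p = 0.026), and the single alleles gave -0.12 ± 0.08 for inv(3) (adjusted p = 0.23) and 0.10 for Sf3b1 K700E (adjusted p = 0.41).

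**Figure D2:**
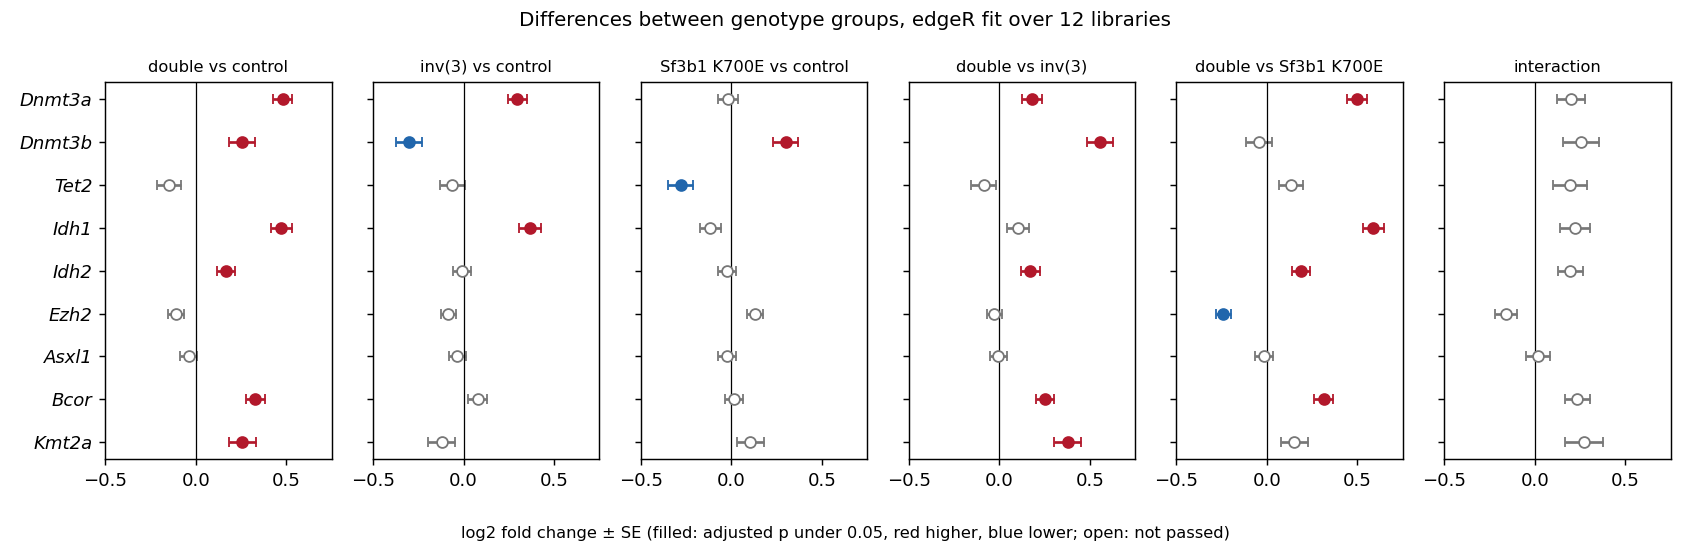
Log2 fold change of each member with its standard error in the 5 pairwise comparisons and the interaction, from edgeR's quasi-likelihood test over 12 libraries. Filled points have an adjusted p under 0.05; in double against control 6 genes are filled and lie right of 0, and in the interaction none is filled.

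Counted over the 9 genes, the double group differed from control in 6, all higher (Dnmt3a, Dnmt3b, Idh1, Idh2, Bcor and Kmt2a), where 20.8% of all tested genes were called higher and 20.4% lower (41.1% in either direction). The members' median change there was 0.25 log2 units, against 0.002 for all genes. Without double replicate 1 or double replicate 3 the count fell to 3, as Dnmt3b, Idh2 and Kmt2a lost their calls. Double against inv(3) gave 5 of 9 called, all higher, beside 13.4% of genes called higher and 9.13% lower (22.6% in all). This count fell to 3 without inv(3) replicate 3, double replicate 1 or double replicate 3. In inv(3) against control 3 of 9 passed (Dnmt3a and Idh1 higher, Dnmt3b lower), a share near the 38.7% of all genes called (18.4% higher and 20.3% lower). Double against Sf3b1 K700E likewise gave 5 of 9, 4 higher and Ezh2 lower, near the 49.2% of all genes (25.7% higher and 23.5% lower). Sf3b1 K700E against control gave 2 of 9 (Dnmt3b higher, Tet2 lower) where 8.84% of genes were called (3.94% higher and 4.9% lower), and both of these calls were lost without single libraries. The comparisons that share control or double libraries are not independent of each other.

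Whether the effect of inv(3) differed between marrow with and without Sf3b1 K700E was tested directly. With edgeR none of the 9 genes passed, and adjusted p ran from 0.14 for Bcor to 0.93 for Asxl1; 115 of all genes passed (0.836%; 0.4% higher and 0.436% lower). DESeq2 called 622 genes and no member. At an unadjusted p under 0.05, 7 of the 9 members and 16.4% of all genes were counted. The estimates were positive for Kmt2a (0.27), Dnmt3b (0.26), Bcor (0.24 ± 0.07), Idh1 (0.22), Dnmt3a (0.20), Idh2 (0.20), Tet2 (0.19) and Asxl1 (0.02), and negative for Ezh2 (-0.16). Their median was 0.20 log2 units, against 0.02 for all genes. No member was called by either tool as differing from the sum of the single alleles' log2 changes.

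Partner genes of the 9 members were read from 7 lists, excluding the members themselves. Their counts are to be read against the share of all tested genes called, given above: 41.1% in double against control, 38.7% in inv(3) against control, 22.6% in double against inv(3) and 49.2% in double against Sf3b1 K700E. The list of IDH and 2-oxoglutarate metabolism, 21 genes, had the most one-sided counts: 13 fell and 2 rose in double against control, 12 fell and none rose in inv(3) against control, and 11 fell and 1 rose in double against Sf3b1 K700E, where 20.4%, 20.3% and 23.5% of all genes were called lower. Its median change was -0.14, -0.16 and -0.14 log2 units in these comparisons, against 0.002, 0.003 and 0.025 for all genes, while Idh1 rose in each of them. Got1, the cytosolic aspartate aminotransferase gene, fell by 0.77 (SE 0.08, adjusted p = 1.4e-05) in double and by 0.86 (SE 0.08, adjusted p = 1e-05) in inv(3) against control. Its 12 libraries were 16.5, 14.6 and 17.0 CPM in double, 16.5, 13.4 and 15.4 CPM in inv(3), 24.9, 26.0 and 24.6 CPM in Sf3b1 K700E and 28.4, 27.2 and 26.7 CPM in control, with no overlap between libraries with and without inv(3). Fh1, the fumarate hydratase gene, fell by 0.33 in double (SE 0.04, adjusted p = 0.00011) and by 0.33 in inv(3) (SE 0.04, adjusted p = 0.00013) against control. None of the 21 genes passed in Sf3b1 K700E against control, where 8.84% of all genes did.

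Of the DNA methylation and hydroxymethylation partners, 12 were tested. In double against control 4 rose and 1 fell, in inv(3) against control 2 rose and 2 fell, and in Sf3b1 K700E against control none passed. The first 2 counts, 5 and 4 of 12, were near the shares of all genes called, 41.1% and 38.7%. Tet1, the paralogue of Tet2, fell by 1.37 log2 units in inv(3) (SE 0.22, adjusted p = 0.00061) and by 0.73 in double (SE 0.22, adjusted p = 0.020) against control. It had 25.7, 17.9 and 24.2 CPM in double, 18.8, 8.89 and 15.8 CPM in inv(3), 33.5, 38.8 and 38.2 CPM in Sf3b1 K700E and 40.03, 36.3 and 36.0 CPM in control libraries. Every library with inv(3) lay below every library without it. Dnmt3l, a catalytically inactive cofactor of Dnmt3a and Dnmt3b best known in germ cells, rose by 1.49 ± 0.22 in inv(3) (adjusted p = 0.00025) and by 1.02 ± 0.22 in double (adjusted p = 0.0029) against control, but stayed at a low level of at most 3.69 CPM. The maintenance methyltransferase gene Dnmt1 (adjusted p at least 0.13) and Tet3 (adjusted p at least 0.37) passed in no comparison.

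Of 11 PRC2 partners of Ezh2, 1 rose in inv(3) against control, beside 38.7% of all genes called, and 0 to 3 were called under the other settings. In Sf3b1 K700E against control Eed, the subunit that binds the methylated histone tail, rose by 0.18 ± 0.04 (adjusted p = 0.024) and the accessory gene Phf19 fell by 0.24 (SE 0.06, adjusted p = 0.023). The call of Eed was lost without control replicate 2 (adjusted p = 0.092), control replicate 3 (0.069) or Sf3b1 K700E replicate 2 (0.10), and that of Phf19 without control replicate 2 (0.099), control replicate 3 (0.10) or any one Sf3b1 K700E library (0.056 to 0.088). In double against Sf3b1 K700E 4 rose and 3 fell (4 to 8 called under the other settings), beside 49.2% of all genes. Eed was among them, falling by 0.21 (SE 0.04, adjusted p = 0.0013), the direction of Ezh2, whereas Ezh1, its paralogue, rose by 0.19 ± 0.04 (adjusted p = 0.0036), a call lost when scaled by library totals alone (0.10, adjusted p = 0.085).

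Of 11 partners of Bcor in its Polycomb complex, 3 rose in inv(3) against control and 1 in double against control, and 2 fell in double against inv(3). These counts were below the shares of all genes called (38.7%, 41.1% and 22.6%), and under the other settings the last 2 each ranged over 0 to 3. Bcl6, a transcriptional repressor that Bcor binds as a corepressor, rose by 0.53 ± 0.10 in inv(3) against control (adjusted p = 0.0018), a comparison in which Bcor itself did not pass. Of 10 genes listed with Asxl1, not all of them its direct partners, 3 rose and none fell in double against control. Of all genes, 20.8% were called higher and 20.4% lower. The 3 were Ogt, the X-linked O-GlcNAc transferase gene (0.55 ± 0.07, adjusted p = 9.7e-05), Cbx2 (0.56 ± 0.12, adjusted p = 0.0029) and Mbd6 (0.50 ± 0.14, adjusted p = 0.014). Cbx2 encodes a subunit of Polycomb repressive complex 1, not of the deubiquitinase. The call of Mbd6 was lost without control replicate 1 (adjusted p = 0.059) or double replicate 1 (adjusted p = 0.060).

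Of 27 genes of KMT2 complexes and MLL fusion partners, 5 rose and 3 fell in double against control, and 5 rose and 3 fell in inv(3) against control. Both counts, 8 of 27, lay below the shares of all genes called (41.1% and 38.7%), and they ranged over 6 to 10 and 4 to 10 under the other settings. Mllt3 (AF9), a reader of acylated histones that is fused to KMT2A in human leukemia, fell by 0.95 in inv(3) against control (SE 0.10, adjusted p = 3.3e-05). It was also lower in double against control (-0.49 ± 0.10, adjusted p = 0.0025) and against Sf3b1 K700E (-0.77 ± 0.10, adjusted p = 8.2e-05), and higher in double against inv(3) (0.46 ± 0.10, adjusted p = 0.0092). Its direction was that of Kmt2a in double against inv(3) and the opposite in double against control. Aff3, another fusion partner, rose by 1.31 ± 0.13 (adjusted p = 1.4e-05) and Kmt2c, a paralogous methyltransferase gene, by 0.40 ± 0.06 (adjusted p = 0.00038) in double against control.

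The list of 18 other chromatin and cohesin genes mutated in myeloid neoplasia gave 6 rises and 1 fall in double against control and 2 rises in inv(3) against control. The first count, 7 of 18, was near the 41.1% of all genes called and the second below the 38.7%, and they ranged over 2 to 9 and 1 to 7 under the other settings. Crebbp, a histone acetyltransferase gene, rose by 0.35 ± 0.09 in double against control (adjusted p = 0.0078). Phf6, an X-linked gene, rose by 0.22 ± 0.05 in Sf3b1 K700E against control (adjusted p = 0.019), a call lost without control replicate 2 (adjusted p = 0.093) or Sf3b1 K700E replicate 2 (adjusted p = 0.076).

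**Figure D3:**
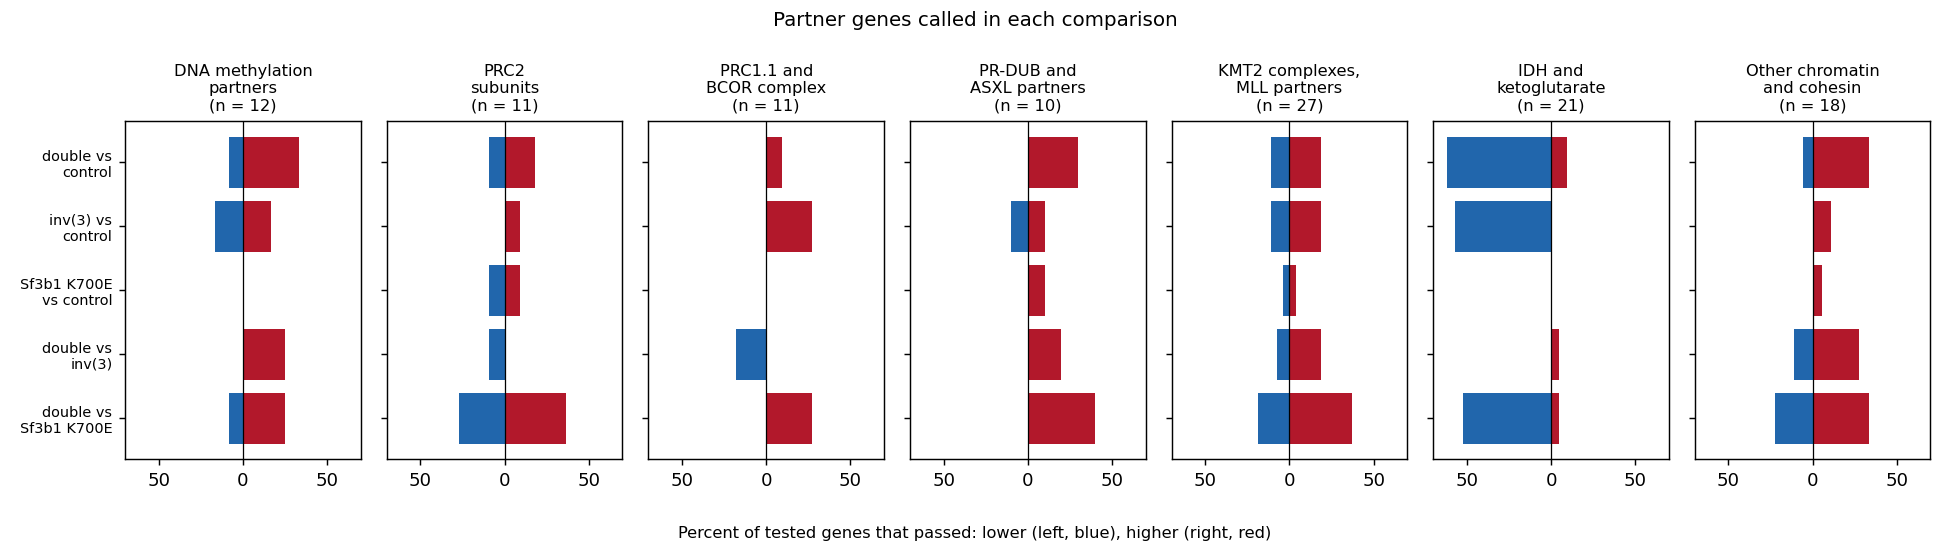
Share of the tested genes of each of 7 partner lists, in percent, that were called lower (blue, left) and higher (red, right) at an adjusted p under 0.05 in the 5 pairwise comparisons. The IDH and 2-oxoglutarate list is mostly blue in the 3 comparisons between groups with and without inv(3), and Sf3b1 K700E against control has few calls in any list.

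Because Sf3b1 K700E changes splicing, the effective length of a gene in bases, which is weighted by isoform use, was compared as a coarse measure of that use. It is a separate column from the plain length, which served as an alternative. The 5 members with more than 1 listed transcript (Dnmt3a, Dnmt3b, Ezh2, Idh1 and Bcor), each with at least 50 counts per library, were among 3422 genes tested with limma. No member passed in any comparison, and of all genes 0.468% passed in double against control, 0.263% in inv(3) against control, 0.0292% in Sf3b1 K700E against control and in double against inv(3), 0.526% in double against Sf3b1 K700E and 0% in the interaction. The smallest member p-values belonged to Dnmt3a in inv(3) against control (0.013 log2 units, adjusted p = 0.53) and Bcor in Sf3b1 K700E against control (-0.0073 log2 units, adjusted p = 1). Cryptic splice sites inside transcripts that are not listed leave no trace in this measure.

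For the 3 members with the widest ranges of group means, the genes with the most similar profiles over the 12 libraries were sought, by the root mean square difference of mean-centred log2 CPM. Closest to Dnmt3b were Ube2cbp (0.046), Arhgap35 (0.071) and Pitpnc1 (0.071). Ube2cbp differed from control by 0.23 in double, -0.34 in inv(3) and 0.21 log2 units in Sf3b1 K700E. Closest to Idh1 were Stat3 (0.057), Rnf24 (0.060) and Prdm9 (0.061), and Stat3 differed from control by 0.52, 0.40 and -0.12 log2 units in double, inv(3) and Sf3b1 K700E. Closest to Dnmt3a were Man2a2 (0.055), Ctr9 (0.066) and Adck1 (0.066), and Ctr9 differed from control by 0.55, 0.37 and 0.02 log2 units in the same order. These profiles are descriptions over libraries that share genotype groups.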

How the data were processed

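Poly(A)-selected RNA was made into unstranded TruSeq libraries, per the labels' protocols. The deposited gene tables have RSEM's columns, per the file headers. They hold expected counts (the authors' estimates of fragments per gene, not normalized), TPM values computed by the authors and, in bases, effective lengths. Per the submitters' processing notes bcl2fastq and mm10 were used, with the aligner and versions not given in the sources used here.

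Of 24411 genes, filterByExpr kept 13755. Expected counts were rounded, scaled by TMM and fitted in 1 quasi-likelihood model with edgeR 4.0.16 (R 4.3.3) over the 4 groups of 3 libraries, with two-sided p-values adjusted by Benjamini-Hochberg. Effective lengths were tested on the log2 scale with limma 3.58.1. The code was tested on simulated data. Promoter windows (on GRCm38.p6) and gene positions came from RefSeq, and the motifs were fixed patterns searched in those windows. TPM and TMM-scaled CPM can differ in sign for small changes, so TPM served only for levels between genes.

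The members and lists were chosen with earlier results of these data known. Named genes were the 9 members, cell type markers and the 3 most similar profiles of 3 members. Up to 3 genes per list and comparison, with the smallest p among those that passed, were eligible, and only some are named. Apobec3 (0.66 log2 units in double against control) and Mllt6 (-1.98 in inv(3) against control) were eligible but not described above. Dnmt1 and Tet3, which passed in no comparison, were added. Some named genes are also given in comparisons where they were not eligible. Reads shared with near-identical copies or antisense transcripts cannot be assigned with certainty, and the lack of UMIs means counts are not independent molecules. A point mutation in Sf3b1 and a rearranged Mecom locus are not checked by gene counts. Mecom itself averaged 10.2 CPM in double, 4.58 CPM in inv(3), 8.48 CPM in Sf3b1 K700E and 6.15 CPM in control libraries. With edgeR it was not called in inv(3) against control (-0.42 ± 0.20 log2 units, adjusted p = 0.11). Alternatives were RLE scaling, library totals alone (added after the data were seen), DESeq2 1.42.0, limma-voom, genes averaging 5 CPM or more, all genes with a count, the compared groups alone, a replicate block, an effective-length offset, autosomal genes alone, no inv(3) libraries, and omission of each library. For length they were the length column and at least 200 counts.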

Additional observations from a re-analysis of the deposited data

Results flagged for a closer look

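The effect of inv(3) on Kdm6a, an X-linked histone H3 lysine 27 demethylase gene, differed with the Sf3b1 genotype. The interaction was -0.70 ± 0.07 log2 units (adjusted p = 0.0010, edgeR's quasi-likelihood test), and it passed without any one library. Kdm6a had 62.6, 58.3 and 64.6 CPM in double, 96.3, 90.0 and 90.9 CPM in inv(3), 57.1, 59.1 and 60.3 CPM in Sf3b1 K700E and 57.8, 52.1 and 52.4 CPM in control libraries. The inv(3) libraries stood above all others, and they are also the 3 libraries with 4 to 8 Y-linked counts and 1794 to 2095 CPM of Xist. Sex and genotype cannot be told apart in that group.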

How the results depend on the processing

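Of 552 member values under other settings, 524 kept their direction and side of the threshold, 7 lost the call, 8 gained it and 13 changed sign. Sign changes were all of values that had not passed. With library totals alone, Sf3b1 K700E against control gave 0.0380 for Dnmt3a, 0.0325 for Asxl1 and 0.0316 for Idh2, and double against inv(3) gave 0.0383 for Asxl1 and 0.0167 for Ezh2. With a mean of at least 5 CPM the values were 0.0142, 0.0085 and 0.0078 for the first 3, 0.0017 for Asxl1 in double against inv(3) and -0.0068 for Asxl1 in the interaction. With autosomal genes alone they were 0.0021 (Idh2, inv(3) against control), 0.0035 (Dnmt3a, Sf3b1 K700E against control) and -0.0135 (Asxl1, interaction). Leaving out single libraries crossed 0 for Tet2 (-0.0970 to 0.0028), Idh2 (-0.0530 to 0.0355) and Asxl1 (-0.0703 to 0.0019) in inv(3) against control, for Dnmt3a (-0.0584 to 0.0261), Asxl1 (-0.0414 to 0.0024), Idh2 (-0.0678 to 0.0288) and Bcor (-0.0187 to 0.0764) in Sf3b1 K700E against control, for Asxl1 in double against inv(3) (-0.0458 to 0.0265), for Asxl1 (-0.0494 to 0.0117) and Dnmt3b (-0.1169 to 0.0122) in double against Sf3b1 K700E, and for Asxl1 in the interaction (-0.0210 to 0.0513).

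Genes called moved past 1.5 times with DESeq2 to 1881 in Sf3b1 K700E against control (1216 with edgeR) and to 622 in the interaction (115), and with the compared groups alone to 1954 in double against inv(3) (3103) and to 1 member in Sf3b1 K700E against control. The replicate block gave 654 genes and 0 members in Sf3b1 K700E against control and 60 genes in the interaction. Same-numbered libraries correlated at -0.379 to 0.27 over 18 pairs, 3 of them over 0.1, so the numbers do not pair the samples. The other calls lost were Tet2 in Sf3b1 K700E against control (adjusted p = 0.063) and Dnmt3a in double against inv(3) (0.080) with the compared groups alone, and Idh2 with library totals. Under the block Tet2 and Dnmt3b in Sf3b1 K700E against control (both adjusted p = 0.055) and Dnmt3a in double against inv(3) (0.059) lost their calls. In effective length the length column gave 21, 5, 38 and 68 genes against 9, 1, 16 and 18, and the block gave 0 for Sf3b1 K700E against control. Leaving out single libraries gave 4359 to 5564 genes for inv(3), 168 to 1649 for Sf3b1 K700E and 4433 to 5964 for double against control, 1566 to 3342 for double against inv(3), 5506 to 7138 for double against Sf3b1 K700E and 32 to 323 for the interaction. Members called ranged over 0 to 2 for Sf3b1 K700E, 3 to 7 for double and 3 to 3 for inv(3) against control, 3 to 5 for double against inv(3) and 4 to 6 for double against Sf3b1 K700E. Length calls ranged over 7 to 20, 0 to 4, 9 to 19, 0 to 2 and 12 to 34. The cause of these changes was not tested. The 3 libraries per group limit precision: standard errors of the members' log2 changes were 0.043 to 0.075 in the pairwise comparisons and 0.060 to 0.11 in the interaction. Partner list counts often moved: of 938 values under all settings, 817 stayed within 1.5 times and 121 did not.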
